A study of Homo sapiens with 4 samples.

Results

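The 10 genes followed here mark or drive the epithelial to mesenchymal transition (EMT), and were read in H1975 cells kept in normoxia or hypoxia. They were taken by gene symbol: the transcription factors SNAI1, SNAI2, ZEB1, ZEB2 and TWIST1, the epithelial adhesion genes CDH1 and EPCAM, and the mesenchymal genes CDH2, VIM and FN1. The gene tables used here held 9 of the 10 among 15562 genes, and TWIST1 was not analysed here. H1975 is an established human lung adenocarcinoma line, labelled wild type in all libraries, and every culture was the same line. The normoxia group was kept for 24 h at 5% CO2, and the hypoxia group for 24 h in a gas mix of 1% O2, 5% CO2 and 94% N2. RNA-seq was made from 1 library of each group, and small RNA sequencing (miRNA-seq) from 1 further library of each group. With 1 library a group there is no spread between cultures, so no difference was tested. The interval beside each ratio covers counting error alone.

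In EMT, epithelial cells loosen their junctions and take on the cytoskeleton and matrix of migrating cells. Factors of the SNAI and ZEB families bind short E-box motifs and repress CDH1, whose product E-cadherin joins neighbouring epithelial cells. Loss of E-cadherin with gain of N-cadherin (CDH2), vimentin (VIM) and fibronectin (FN1) is the textbook sign of the transition, and carcinoma lines often hold a mixture of both states. Low oxygen is known to favour the transition in many carcinoma cells, in part through hypoxia-inducible factors (HIF).

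Total RNA-seq counts were 17643836 (normoxia) and 18943320 (hypoxia). Of 14 HIF targets, 12 had a 95% counting interval of the log2 ratio wholly above 0, against 15% of all genes past the expression filter. The median of the 14 was 0.48. NDRG1 had 5214 counts in hypoxia and 1958 in normoxia, in the direction that the labels give. Keratins of simple epithelium were among the highest genes (KRT8 at 1821 FPKM in normoxia), and the lung lineage factor NKX2-1 was at 32.3 FPKM in normoxia and 34.8 in hypoxia. Of the 8 epithelial markers, all past the filter, 5 lay wholly below 0, against 14% of all filtered genes, and 0 wholly above. Their median log2 ratio was -0.09, and CDH1 and EPCAM were the 2 with a ratio above 0. The surfactant genes of alveolar cells were nearly unread, with 4 counts of SFTPC in normoxia and 2 in hypoxia. The alveolar markers NAPSA, at 90 and 106 counts, and AGER, at 81 and 96, passed the filter, as did NKX2-1. Of these 3, 1 lay wholly above 0 and 0 wholly below, against 15% and 14% of all filtered genes. Markers of other cell types ran from nearly unread to abundant. The 5 leukocyte markers in the tables summed to 144 FPKM in normoxia and 140 in hypoxia, from PTPRC at 0 and 2 counts through CD14 at 402 and 315 to the lysosomal CD68 at 3849 and 4148, and 2 of the 3 past the filter lay wholly below 0. The 4 endothelial markers in the tables summed to 1.25 and 1.08 FPKM, from VWF at 0 and 2 counts to CDH5 at 73 and 57. The 8 fibroblast markers summed to 20.2 and 21.0 FPKM, from THY1 at 2 and 0 counts to COL1A1 at 1579 and 1800, with 1 of the 6 past the filter wholly above 0 and 1 wholly below. The part of other cells in the results was not tested.

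In the hypoxia library SNAI1 and VIM were slightly higher than in normoxia, and no other member differed beyond counting error. SNAI1 was 1.30-fold higher (95% counting interval 1.17 to 1.44) and VIM 1.14-fold higher (1.13 to 1.15). CDH1 and EPCAM, the epithelial members, had ratios slightly above 1 with intervals that hold 1, and CDH2 was almost unread in both libraries. After scaling by the trimmed mean of M values (TMM), a gene was called by size where the libraries differed at least 2-fold and the interval did not contain a ratio of 1. By that rule 0 members were called higher, against a background of 0.472% of the 12725 genes at 1 CPM (counts scaled to library size) or more in at least 1 library, and 0 were called lower against 0.44%. The 2 members with an interval wholly above 0 were 2 of the 7 that passed this expression filter, while 15% of all filtered genes were so placed. None of the 7 had an interval wholly below 0, against 14% of all. A share of 2 in 7 rests on too few genes to be set apart from that background.

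Levels of different genes can be compared only per length, and the authors' FPKM (fragments scaled for gene length and library total) serve for that. In normoxia VIM stood far above the rest at 1914 FPKM, followed by EPCAM at 50.0, FN1 at 35.8, SNAI1 at 20.7, CDH1 at 9.11, SNAI2 at 4.06, ZEB1 at 1.60, ZEB2 at 0.0489 and CDH2 at 0.0247. In hypoxia the order was the same, with VIM at 2161 FPKM, EPCAM at 52.7, FN1 at 35.8, SNAI1 at 26.7, CDH1 at 9.47, SNAI2 at 3.39, ZEB1 at 1.71, ZEB2 at 0.0342 and CDH2 at 0.0115. Every neighbouring pair in this order differed beyond counting error in both libraries except ZEB2 and CDH2, whose ratio of levels was 1.98 (0.395 to 19.1) in normoxia. The narrowest step was from FN1 to SNAI1 in hypoxia, 1.34-fold (1.25 to 1.44), against 1.73-fold (1.59 to 1.88) in normoxia.

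**Figure D1:**
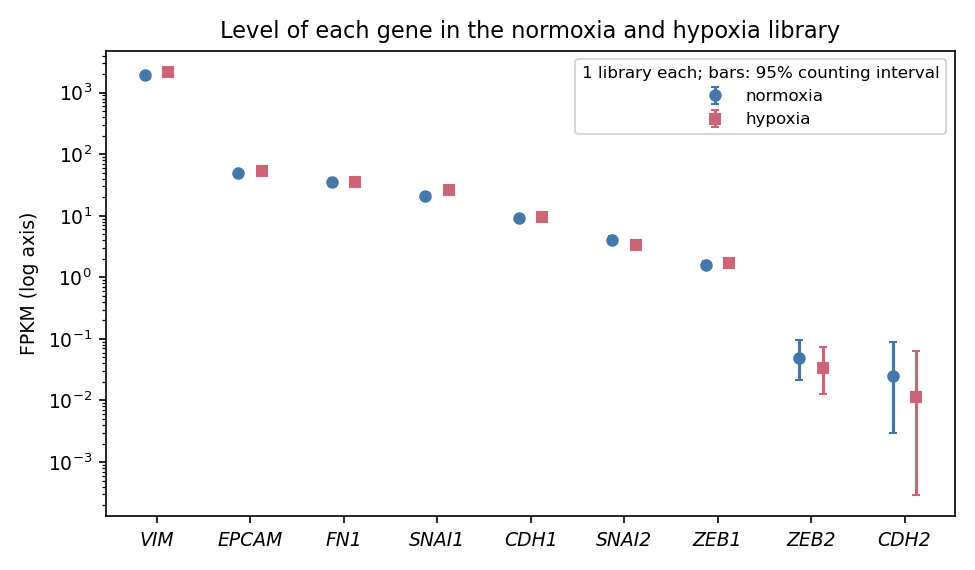
FPKM of the 9 genes (log axis) in the normoxia library (circles) and the hypoxia library (squares), 1 library each, with bars for the exact Poisson 95% counting interval. Both libraries give the same order from VIM (1914 and 2161 FPKM) down to CDH2, and of genes next to each other in that order within a library, only ZEB2 and CDH2 have bars that overlap.

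SNAI1 encodes Snail, a zinc finger repressor of CDH1 that acts early in the transition and is rapidly degraded as a protein. The gene (Entrez 6615) lies on chromosome 20, 49982980 to 49988886, in GRCh38.p14. It had 623 counts in normoxia and 862 in hypoxia, a log2 ratio of 0.38 (0.23 to 0.53). The hypoxia library was the higher one, and the Poisson intervals of the levels, 19.1 to 22.4 FPKM in normoxia and 24.9 to 28.5 in hypoxia, did not overlap. A log2 ratio at least as high was held by 180 (1.68%) of the 10739 genes that reached 100 counts in each library. The 14 HIF targets ran from 0.23 (ANGPTL4) to 1.32 (NDRG1), with a median of 0.48. Among them, the carbonic anhydrase CA9 was at 0.51 (0.38 to 0.65) and the lysyl oxidase LOX at 0.35 (0.22 to 0.48). SNAI1 lay within the range of that list but below its median. A part of HIF in the SNAI1 ratio was not tested.

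SNAI2 encodes Slug, the close relative of Snail. This gene (Entrez 6591, chromosome 8, 48917598 to 48921429) had 156 counts in normoxia and 140 in hypoxia, a log2 ratio of -0.25 (-0.59 to 0.09). The hypoxia value was the lower one, but the interval holds 0. As a ratio the interval runs from 0.665 to 1.06. SNAI1 and SNAI2 nevertheless differed from each other in how they moved. The level of SNAI1 was 5.11-fold that of SNAI2 in normoxia (4.28 to 6.13) and 7.87-fold in hypoxia (6.58 to 9.48). The odds ratio of the 4 counts, which needs no library scaling, was -0.62 on the log2 scale for SNAI2 against SNAI1 (-0.998 to -0.252).

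ZEB1 and ZEB2 encode large zinc finger homeobox factors that repress CDH1 through the E-box and that are held in check by miRNAs of the miR-200 family. ZEB1 (Entrez 6935, chromosome 10, 31318417 to 31529804) had 231 counts in normoxia and 266 in hypoxia, a log2 ratio of 0.11 (-0.15 to 0.37). ZEB2 (Entrez 9839, chromosome 2, 144384081 to 144520119) had 8 and 6, a log2 ratio of -0.51 (-2.31 to 1.21). Neither difference exceeded counting error, and for ZEB2 the interval reaches past a doubling. ZEB1 was the prevailing family member, at 32.6-fold the level of ZEB2 in normoxia (16.3 to 76.5) and 50.1-fold in hypoxia (22.7 to 138). ZEB2 did not pass the expression filter in either library.

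The DNA just upstream of 3 members is shown to set the most abundant gene, VIM, beside the paired ZEB1 and ZEB2. Each run is the 250 bases before a RefSeq transcript start, on the gene's own strand, from GRCh38.p14. Capitals mark the E-box CAGGTG and the cores ACGTG and GCGTG of the motif that HIF binds, each searched on both strands.
VIM, chr10:17227991-17228240, plus strand: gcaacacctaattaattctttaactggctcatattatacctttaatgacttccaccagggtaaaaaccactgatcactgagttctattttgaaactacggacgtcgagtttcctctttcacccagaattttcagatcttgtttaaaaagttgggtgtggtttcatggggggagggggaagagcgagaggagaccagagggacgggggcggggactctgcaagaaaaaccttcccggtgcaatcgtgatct
ZEB1, chr10:31318167-31318416, plus strand: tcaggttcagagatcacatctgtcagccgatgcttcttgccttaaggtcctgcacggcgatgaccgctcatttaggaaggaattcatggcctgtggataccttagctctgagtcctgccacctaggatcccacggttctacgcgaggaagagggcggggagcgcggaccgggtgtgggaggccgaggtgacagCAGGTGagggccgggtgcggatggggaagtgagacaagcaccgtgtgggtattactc
ZEB2, chr2:144520120-144520369, minus strand: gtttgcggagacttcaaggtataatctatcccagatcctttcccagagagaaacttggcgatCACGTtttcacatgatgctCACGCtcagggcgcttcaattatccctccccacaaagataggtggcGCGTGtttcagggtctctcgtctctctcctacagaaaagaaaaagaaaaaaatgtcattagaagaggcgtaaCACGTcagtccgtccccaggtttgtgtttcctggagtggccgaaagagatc
The VIM window held none of these letters, the ZEB1 window shown held 1 E-box, and the ZEB2 window held 2 ACGTG and 2 GCGTG matches. The ZEB1 count depends on the start chosen, and ZEB1 and ZEB2 cannot be set apart by it: of the other ZEB1 windows, 1 held 2 E-boxes, 1 held 2 ACGTG matches, and 2 held GCGTG, 3 times and once. Over all 35116 windows of the same length, 17.5% held CAGGTG, 18.5% ACGTG and 32.2% GCGTG, so each is common. These are matches of letters and not measured binding sites. Of the members 5 had entries, 12 windows in all, because ZEB1 has 7 listed starts and CDH2 has 2. CpG dinucleotides numbered 8 in the VIM window, 15 in the ZEB1 window shown, 12 in that of ZEB2 and 32 in that of FN1, against a median of 11 over all windows.

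CDH1 encodes E-cadherin, the calcium-dependent adhesion molecule of epithelial junctions. The gene (Entrez 999, chromosome 16, 68737292 to 68835537) had 773 counts in normoxia and 863 in hypoxia, a log2 ratio of 0.07 (-0.08 to 0.21). The interval reaches down to a ratio of 0.949, so counting error allows at most that small a loss of the transcript between these libraries. EPCAM encodes a surface adhesion glycoprotein of epithelia and carcinomas. It (Entrez 4072, chromosome 2, 47369311 to 47387020) had 1364 and 1543 counts, a log2 ratio of 0.09 (-0.02 to 0.19). EPCAM stood 5.49-fold above CDH1 by FPKM in normoxia and 5.56-fold above it in hypoxia, and the log2 odds ratio of the pair was 0.02 (-0.16 to 0.20).

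VIM encodes vimentin, the intermediate filament protein of mesenchymal cells. The gene (Entrez 7431, chromosome 10, 17228241 to 17237593) took 72840 counts in normoxia and 88287 in hypoxia, 0.413% and 0.466% of each library. By FPKM it ranked 12 of all genes in normoxia and 10 in hypoxia, beside the keratins. Its log2 ratio was 0.18 (0.17 to 0.20), and 10.9% of the 10739 well-counted genes had one at least as high. Counting error is very small at this depth, so the interval leaves out the variation between cultures, which was not measured.

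FN1 encodes fibronectin, a matrix glycoprotein that integrins bind. Its gene (Entrez 2335, chromosome 2, 215360865 to 215436068) had 5496 counts in normoxia and 5899 in hypoxia, a log2 ratio of 0.01 (-0.04 to 0.06). The 2 libraries held nearly equal shares of this transcript. The gene span overlaps that of ATIC at one end, and ATIC was at 0.05 (-0.03 to 0.13). At the other end it overlaps the noncoding gene FN1-DT, which has no counts here. VIM and FN1, both counted as mesenchymal products, moved apart slightly: the log2 odds ratio of VIM against FN1 was 0.18 (0.12 to 0.23).

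CDH2 encodes N-cadherin, the cadherin of neurons and mesenchyme that replaces E-cadherin in a full cadherin switch. The gene (Entrez 1000, chromosome 18, 27932879 to 28177130) had 2 counts in normoxia and 1 in hypoxia, a log2 ratio of -1.09 (-6.98 to 3.17). No direction can be read from so few counts. Poisson upper bounds of its level were 0.0893 FPKM in normoxia and 0.0642 in hypoxia, far below the 9.11 and 9.47 FPKM of CDH1. The N-cadherin transcript thus lay below that of E-cadherin in both libraries.

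**Figure D2:**
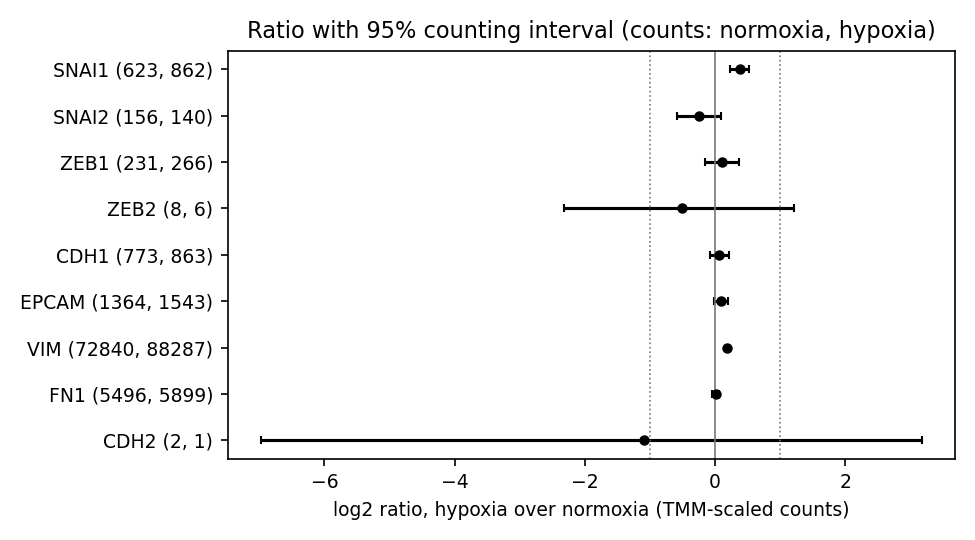
Log2 ratio of hypoxia over normoxia (TMM-scaled counts) for each gene with its exact conditional 95% counting interval, with the counts in brackets and dotted lines at a 2-fold difference. SNAI1 and VIM lie wholly above 0, and ZEB2 and CDH2 have intervals wider than the 2-fold lines on both sides.

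**Figure D3:**
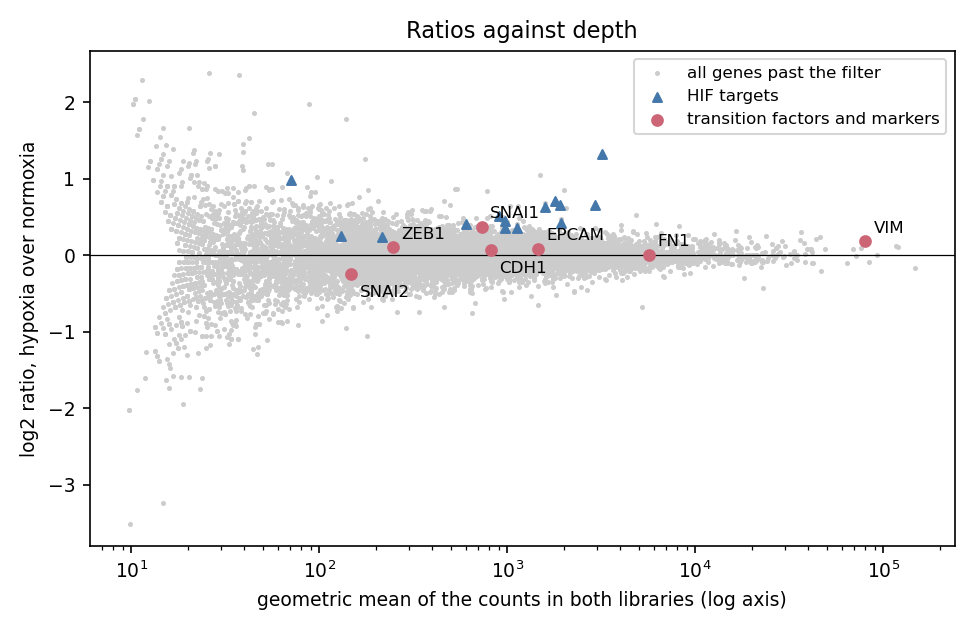
Log2 ratio of hypoxia over normoxia against the geometric mean count (log axis) for filtered genes with a count in both libraries (grey), the HIF targets (triangles) and the 7 members past the filter (circles). SNAI1 at 0.38 lies at the upper edge of genes of like depth, next to the lower HIF targets, and CDH1, EPCAM and FN1 lie within the grey band.

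The median log2 ratio of the 7 members past the filter was 0.09, with 6 above 0, beside a median of 0.00 over all 12725 filtered genes. Ratios of pairs within a library do not depend on scaling, and they did not separate the mesenchymal from the epithelial members beyond counting error. The log2 odds ratio was 0.12 for VIM against CDH1 (-0.02 to 0.26) and 0.10 for VIM against EPCAM (-0.01 to 0.21). For FN1 it was -0.06 against CDH1 (-0.21 to 0.09) and -0.08 against EPCAM (-0.19 to 0.04). All 4 intervals hold 0. SNAI1 was compared with 4 other members after the values had been seen. Its log2 odds ratio was 0.31 against CDH1 (0.11 to 0.51) and 0.29 against EPCAM (0.11 to 0.47). Against ZEB1 it was 0.26 (-0.03 to 0.56), which holds 0. Against VIM it was 0.19 (0.04 to 0.34), and there the 99% interval holds 0 (-0.0053 to 0.39).

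**Figure D4:**
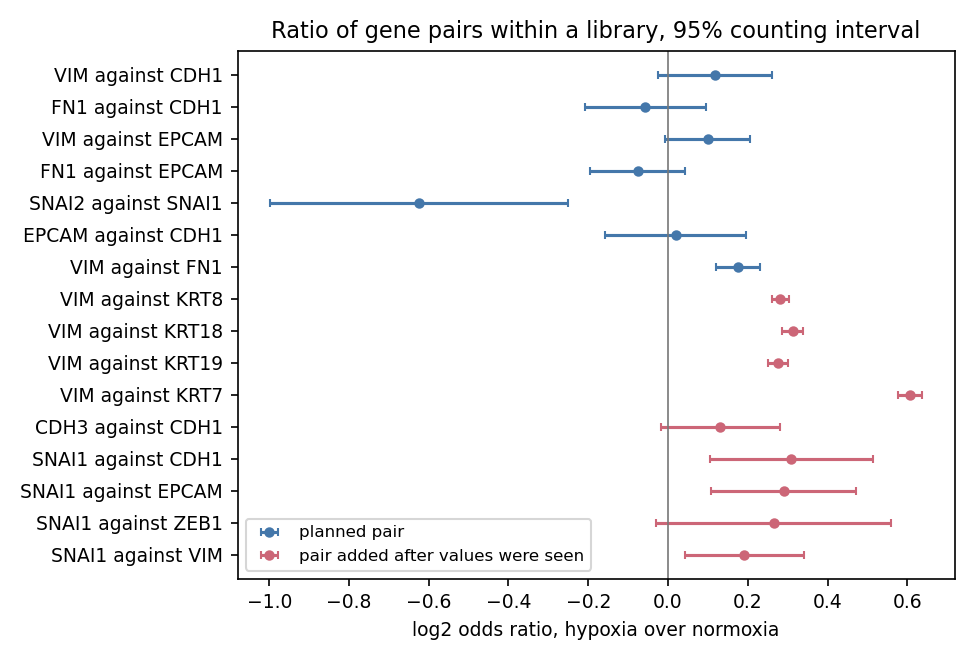
Log2 odds ratio, hypoxia over normoxia, of the counts of gene pairs, with 95% counting intervals (exact conditional for planned pairs, Woolf for pairs added after the values were seen). VIM against CDH1 at 0.12 and against EPCAM at 0.10 hold 0, whereas VIM against the 4 keratins and SNAI1 against CDH1 do not.

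Other genes of the pathway were read from lists, each gene counted once: 180 genes, of which 168 were in the tables and 141 passed the filter. By size 1 was called higher and 0 lower. Intervals lay wholly above 0 for 34 (24.1%) and wholly below 0 for 25 (17.7%), beside 15% and 14% of all filtered genes, and their median was 0.03. The same 15% and 14% apply beside the counts of each list below. An interval excludes 0 more readily at greater depth, and these shares were not matched for depth. COL3A1, a fibrillar collagen of mesenchyme, was the 1 call, with 25 counts in normoxia and 60 in hypoxia, a log2 ratio of 1.17 (0.47 to 1.91).

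Of 14 other transition factors, 8 passed the filter, 1 lay wholly above 0 and 2 wholly below, with a median of 0.03. TCF3, a basic helix-loop-helix factor that can repress CDH1, had the highest level, 47.1 FPKM in normoxia and 44.0 in hypoxia, a log2 ratio of -0.09 (-0.15 to -0.03). SOX9 followed at 24.2 FPKM in normoxia with a log2 ratio of -0.06 (-0.16 to 0.04). FOXC1 was lowest at -0.26 (-0.41 to -0.11). The closest relatives of the members were hardly read, with 1 count of SNAI3 in each library and 1 and 3 counts of TWIST2.

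Of 13 factors that hold the epithelial state, 8 passed, with 2 wholly above 0, 2 wholly below and a median of 0.15. GRHL2, which sustains CDH1 transcription, was low, at 63 counts in normoxia and 65 in hypoxia (-0.05, -0.57 to 0.48). The epithelial splicing regulator ESRP1 had 18 and 31 counts (0.69, -0.19 to 1.62), and its paralog ESRP2 had 635 and 587 (-0.21, -0.37 to -0.04). ELF3, an epithelial ETS factor, was the highest in level, 21.1 FPKM in normoxia, with a log2 ratio of 0.30 (0.19 to 0.41). FOXA2 was at -0.19 (-0.35 to -0.04), and TP63 at 0.95 (0.07 to 1.88) on 17 and 35 counts.

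The 12 corepressors that SNAI and ZEB factors recruit all passed the filter, between -0.13 for SUZ12 (-0.27 to 0.01) and 0.16 for RCOR1 (0.07 to 0.24). Of these, 3 lay wholly above 0 and 1 wholly below, with a median of -0.01. SMARCA4, at 78.8 FPKM in normoxia, was at -0.03 (-0.07 to 0.01), and HDAC1, at 61.0 FPKM, at -0.01 (-0.09 to 0.07). Of 15 filtered regulators of Snail protein stability, 5 (33.3%) lay wholly above 0 and 0 wholly below, with a median of 0.11. The list pools genes with opposite effects on the protein, so its counts give no direction for Snail. LOXL2, a lysyl oxidase relative that binds Snail, was the highest in level, 146 FPKM in normoxia and 166 in hypoxia (0.19, 0.15 to 0.23). The kinase CSNK1A1 was at 0.12 (0.06 to 0.19), the ubiquitin ligase subunit FBXL5 at 0.21 (0.08 to 0.35) and LOXL3 at -0.51 (-1.04 to 0.00). Snail protein was not measured here.

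Among 21 other cadherins, 15 were in the tables and 8 passed the filter. CDH3, which encodes P-cadherin of basal and carcinoma cells, was the main cadherin of this line, at 53.3 FPKM in normoxia and 60.7 in hypoxia. It was 5.85-fold above CDH1 in normoxia (5.42 to 6.31) and 6.41-fold in hypoxia (5.96 to 6.88). CDH3 had 5223 and 6387 counts, a log2 ratio of 0.20 (0.14 to 0.25), but against CDH1 its log2 odds ratio was 0.13 (-0.02 to 0.28), which holds 0. CDH24 was at -0.18 (-0.31 to -0.04), CDH26 at 0.37 (-0.27 to 1.02) and CDH16 at -0.65 (-1.70 to 0.37), the last on 22 and 15 counts. CDH11, a mesenchymal cadherin, had 608 counts in normoxia and 688 in hypoxia (0.09, -0.07 to 0.25).

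The catenins, which link cadherins to actin, were abundant: CTNNA1 stood at 96.6 FPKM in normoxia (0.07, 0.03 to 0.11), CTNNB1 at 70.4 (0.05, -0.001 to 0.11), CTNND1 at 47.5 (0.12, 0.07 to 0.17) and JUP at 40.4 (0.06, -0.02 to 0.14). The interval of CTNNB1 just holds 0. Of the 11 filtered genes of the adherens junction list, 4 lay wholly above 0 and 1 wholly below, with a median of 0.05. CTNNAL1 was the lowest at -0.14 (-0.23 to -0.06), NECTIN3 the highest at 0.38 (-0.02 to 0.77), and the actin linker VCL, at 76.8 FPKM, was at 0.05 (0.00 to 0.09).

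Tight junction genes numbered 11 past the filter, 2 wholly above 0 and 3 wholly below, with a median of -0.06. CLDN4 was the highest in level at 190 FPKM in normoxia (-0.08, -0.13 to -0.03), followed by CLDN7 at 42.4 (-0.06, -0.18 to 0.05). CLDN3 was lowest at -0.36 (-0.58 to -0.14) and MARVELD2 highest at 0.21 (-0.03 to 0.45). Of 7 desmosome genes, 2 lay wholly above 0 and 0 below, with a median of 0.01. DSP, the plaque protein desmoplakin, had 5161 counts in normoxia and 7338 in hypoxia (0.42, 0.36 to 0.47), while PKP3 was at 0.01 (-0.07 to 0.09) and PKP2 at -0.56 (-1.44 to 0.30). Of 12 polarity genes, 2 lay wholly above and 1 wholly below, with a median of -0.04. LLGL1 at -0.19 (-0.25 to -0.12) and SCRIB at -0.07 (-0.15 to 0.01) had the highest levels, PATJ was highest in ratio at 0.29 (0.07 to 0.50) and PARD6G lowest at -0.51 (-1.28 to 0.25).

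Relatives and partners of EpCAM had a median of -0.04 over 12 genes, 2 wholly above 0 and 4 wholly below. SPINT2, at 117 FPKM in normoxia, was at -0.08 (-0.15 to -0.01), the tetraspanin CD9, at 113 FPKM, at -0.14 (-0.21 to -0.06), and TSPAN8 at 0.67 (-0.17 to 1.55).

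Fibronectin receptors and crosslinkers had a median of 0.13 over 9 filtered genes, with 4 wholly above 0 and 0 wholly below. The 4 were ITGA5, the alpha chain of the main fibronectin receptor (0.26, 0.22 to 0.30), ITGB3 (0.30, 0.20 to 0.39), ITGAV (0.13, 0.02 to 0.23) and the crosslinking enzyme TGM2 (0.25, 0.18 to 0.31). ITGB1 at 152 FPKM in normoxia (0.04, 0.00 to 0.08) and SDC4 at 143 (0.02, -0.03 to 0.07) were the highest in level, and their intervals hold 0. ITGB8 was highest in ratio at 0.77 (-0.36 to 1.98) and TNS1 lowest at -0.48 (-1.27 to 0.30), both on few counts. FN1 itself was at 0.01.

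Of 12 other genes of intermediate filaments and their linkers, all past the filter, 7 lay wholly below 0 and 2 wholly above, with a median of -0.11. The 2 above were LMNA, which encodes nuclear lamins (0.05, 0.02 to 0.07), and PLEC, which encodes the linker plectin (0.14, 0.11 to 0.16). KRT8 had 63886 counts in normoxia and 63715 in hypoxia (-0.10, -0.11 to -0.08), KRT19 was at -0.09 (-0.11 to -0.07), KRT18 at -0.13 (-0.15 to -0.10) and KRT7 at -0.42 (-0.45 to -0.40). In pairs chosen after the values had been seen, the log2 odds ratio of VIM was 0.28 against KRT8 (0.26 to 0.30), 0.31 against KRT18 (0.29 to 0.34), 0.28 against KRT19 (0.25 to 0.30) and 0.61 against KRT7 (0.58 to 0.64). VIM thus gained on each of these keratins within the hypoxia library, although not detectably on CDH1 or EPCAM. The neural filament gene NES was also below 0 (-0.32, -0.39 to -0.25), PRPH was the lowest at -0.49 (-1.30 to 0.30) and DES the highest at 0.37 (-0.35 to 1.11).

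Of 20 other mesenchymal products, 17 passed, 4 wholly above 0 and 3 wholly below, with a median of 0.09. S100A4, at 160 FPKM in normoxia, was at -0.09 (-0.19 to 0.01) and SPARC, at 114 FPKM, at 0.03 (-0.02 to 0.07). Besides COL3A1, the 3 above were COL5A1 (0.28, 0.24 to 0.32), SPOCK1 (0.27, 0.18 to 0.35) and TNC (0.09, 0.06 to 0.13). The 3 below were AXL (-0.20, -0.30 to -0.09), COL1A2 (-0.35, -0.62 to -0.09) and MMP14 (-0.10, -0.20 to 0.00), so matrix and surface genes of mesenchyme went both ways. DCN was lowest at -0.39 (-1.20 to 0.40). Several of these genes are also the fibroblast markers given above. In bulk RNA, fewer cells of a type and less RNA per cell cannot be told apart.

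**Figure D5:**
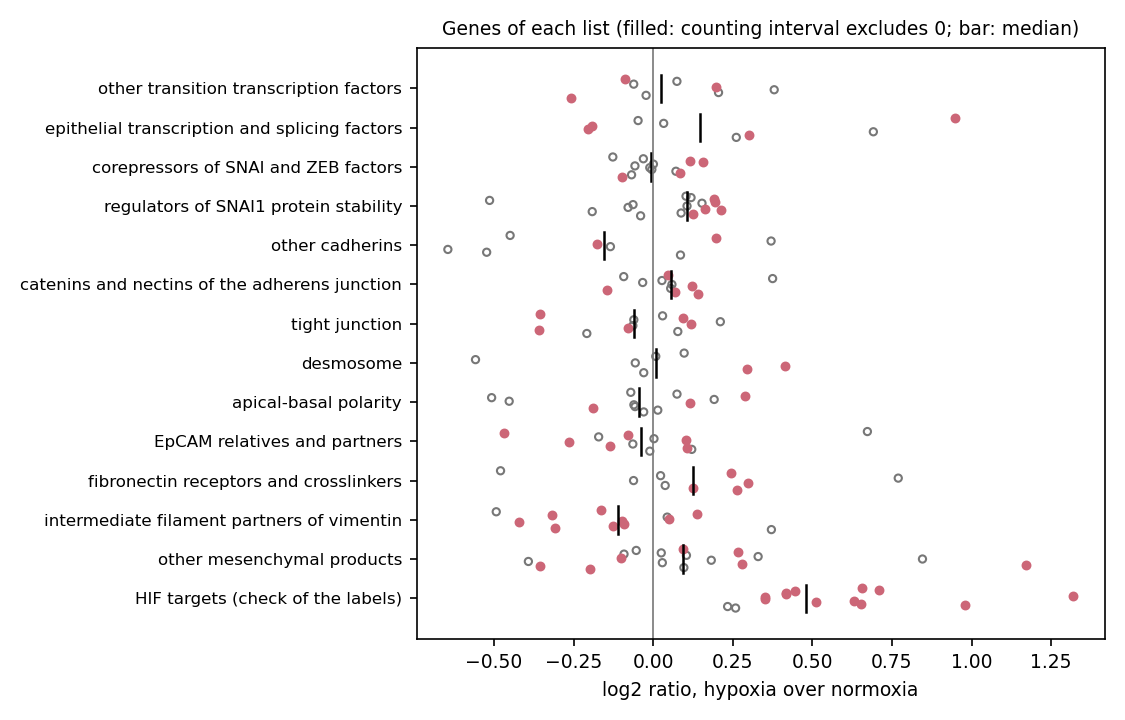
Log2 ratio of hypoxia over normoxia for each filtered gene of each list, filled where the 95% counting interval excludes 0, with a bar at the list's median. HIF targets stand at a median of 0.48, while the other lists have medians between -0.16 (other cadherins) and 0.15 (epithelial factors).

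miRNA-seq gave values for 5 of 20 listed miRNAs that are known to act on these genes, and their sequences are shown because they identify the small RNAs measured. Capitals mark the seed, bases 2 to 8, which pairs with target messages, written with T as deposited.
miR-200c-3p: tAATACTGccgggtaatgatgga
miR-203a-3p: gTGAAATGtttaggaccactag
miR-192-5p: cTGACCTAtgaattgacagcc
miR-9-5p: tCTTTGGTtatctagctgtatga
miR-10b-5p: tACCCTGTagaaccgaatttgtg
The 5 seeds all differ. miR-200c-3p, the repressor of ZEB1 and ZEB2, had 37 reads in normoxia and 0 in hypoxia, and miR-203a-3p, known to act on SNAI2, had 35 and 0. The libraries were shallow and unequal, with 32116 miRNA reads in normoxia and 6576 in hypoxia. As a share of miRNA reads miR-200c-3p was at 0.115% in normoxia (0.0811 to 0.159, exact Clopper-Pearson). In hypoxia 0 reads allow up to 0.0561% by the same interval, or 0.0456% by the limit of 3 counts. Against that limit in the hypoxia library, and with the 37 reads taken as fixed, it was at least 2.53-fold lower by total counts, at least 3.36-fold lower after TMM scaling and at least 15.2-fold lower by the larger totals that the authors' TPM imply. With the counting error of the 37 reads included, the exact 95% upper limit of the log2 ratio was -0.97, -1.38 and -3.55 under these 3 scalings. Such a loss was common there: of 70 miRNAs with 35 or more reads in normoxia, 25 had 0 in hypoxia. The targets of miR-200c-3p, ZEB1 and ZEB2, did not differ beyond counting error in the RNA-seq libraries.

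miR-9-5p, known to act on CDH1, had 51 reads in normoxia and 58 in hypoxia, and miR-10b-5p, known as a target gene of TWIST1, had 50 and 65. By total counts their log2 ratios were 2.47 (1.91 to 3.05) and 2.67 (2.11 to 3.23). By the authors' TPM, scaled to a total that holds far more than these reads, they were -0.11 (-0.68 to 0.46) and 0.08 (-0.47 to 0.64). The direction of miR-9-5p therefore depends on the scaling. miR-192-5p had 3 reads in normoxia and 0 in hypoxia, which gives no fold.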

How the data were processed

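RNA-seq and miRNA-seq were each read from 1 normoxia and 1 hypoxia library. Per the labels' protocols, TRIzol RNA (4 µg) went into a stranded mRNA kit and mirVana RNA (1 µg) into small RNA libraries. Per the submitters' processing notes, Trimmomatic, HISAT2, Cufflinks, HTSeq and Bowtie were used on GRCh38 (versions not stated; strand use in counting not stated). The authors deposited raw counts per gene and per mature miRNA. FPKM, deposited by the authors, equal counts over total and length (lengths whole within 0.01 bases for 100% of genes). TPM, deposited by the authors for miRNAs, imply library totals of 8889769 (normoxia) and 10936385 (hypoxia) reads.

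Counts were scaled by TMM (edgeR 4.0.16, R 4.3.3), with exact conditional 95% intervals (scipy 1.17.1). Intervals and floors (3 counts for 0) cover counting error only, and PCR copies of one molecule count as separate reads. The filter was 1 CPM in either library. The members and lists were chosen with earlier results of these data known. Named were all members, a fixed set, the extreme ratios and 2 highest FPKM of each list, and list genes called by size; further list genes named were chosen after their values were seen. Values of some genes that this rule names are not reported here. Coordinates and upstream sequences are from RefSeq, GRCh38.p14 (15526 of 15562 genes matched by identifier). The interval method was tested on data simulated with counting error alone, so that test does not cover variation between cultures or PCR copies. Alternatives were total counts, DESeq2 1.42.0 size factors, upper quartile scaling, FPKM with a pseudocount of 1 or 0.1, no filter, 5 CPM, 99% intervals, intervals beyond 1.5-fold, and subtraction of the median ratio of genes of like length (10 bins).

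VIM, ZEB1, ZEB2 and CDH2 are overlapped by antisense genes with no row in these tables, and reads of both cannot be told apart without known strand use. The noncoding gene FN1-DT, which overlaps FN1, has no row either.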

Additional observations from a re-analysis of the deposited data

How the results depend on the processing

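No paired analysis was possible because each group has 1 library per assay. Over 79 recomputed ratios of the 9 members, 78 stayed within the main counting interval. Those with no filter, a 5 CPM filter or 99% intervals could not leave it, because these settings do not change the ratio. Total counts, DESeq2 and upper quartile scaling each shift all genes alike, total counts by -0.0098 on the log2 scale. Each shift was smaller than the reach of every member's interval, so only the FPKM and length settings could move a ratio out. The exception was VIM, at 0.24 (0.22 to 0.25) once the median of genes of like length (10 bins) was removed, with the same direction. Shorter genes tended to lower ratios, from a median of -0.06 in the shortest bin to 0.07 in the longest, and under that setting EPCAM was at 0.14 (0.03 to 0.24), so that 3 members lay wholly above 0 where 2 did otherwise. SNAI1 ran from 0.35 to 0.43 over all settings, and its interval stayed above 0 in each setting that gives one, at 99% too. FN1 ran from -0.03 to 0.01, with an interval that held 0 throughout. No member was called by size under any setting, the interval wholly beyond a 1.5-fold ratio included. FPKM with a pseudocount carry no interval, so only the size of the ratio was used there. With FPKM and a pseudocount of 1 or 0.1, and with a filter at 5 CPM, 0 list genes were called higher (COL3A1 was lost), and with no filter 1 was called lower (FOXC2, on 11 and 3 counts). Intervals of CLDN4, SPINT2, CTBP2, ITGAV, PARD3, SIN3A, TJP1 and VCL, wholly to one side of 0 otherwise, held 0 under at least 1 of the other scalings or the length setting, while none of the 4 keratins did. The length setting moved KRT8 to -0.046, KRT18 to -0.071 and KRT19 to -0.035, each over 1.5 times closer to 0, and KRT7 to -0.39. The miR-9-5p ratio turned to -0.11 with the authors' TPM, and miR-10b-5p fell to 0.08. Depth limits ZEB2, whose ratio could lie from 0.201 to 2.31, and CDH2, from 0.00795 to 9.01.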
